A study of Mus musculus with 2 samples.

Results

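Colq and 8 further genes of acetylcholine signalling were followed in ureters of mouse embryos that had lost Rbpj in the ureteric mesenchyme. The 9 genes are Colq, Ache, Chat, Slc18a3, Slc5a7, Chrna3, Chrnb4, Chrm2 and Chrm3, out of 30011 gene names on the array. Colq was chosen by its low measured ratio of Rbpj-cKO over control on these same arrays and the other 8 genes were selected with earlier results of these data in view, so every value of the members is a description and no p-value is attached to any of them. The members are covered by 12 probes, 2 each for Colq, Ache and Slc5a7 and 1 for each of the others.

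RNA of ureters dissected at E14.5 of gestation was compared on 2 Agilent arrays, each of which took Rbpj-cKO RNA in one dye and control RNA in the other. Rbpj-cKO embryos were Tbx18(cre/+);Rbpj(fl/fl) and control embryos were Rbpj(fl/?), all of the NMRI strain. The Tbx18 locus drives Cre in mesenchymal cells of the ureter, while the RNA came from whole ureters with their epithelium, nerves and blood. The control label leaves the second Rbpj allele open and names no Cre, so a Tbx18(cre/+) effect without loss of Rbpj is not separated from the loss itself. Replicate 1 paired male Rbpj-cKO (AlexaFluor647, red) with male control (AlexaFluor555, green), and replicate 2 paired female Rbpj-cKO (AlexaFluor555) with female control (AlexaFluor647). Sex, dye orientation and array therefore cannot be told apart. The labels do not state how many embryos a channel holds, and the spread between the arrays may be technical in part.

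Acetylcholine is made from choline in cholinergic nerve endings, packed into vesicles, released onto nicotinic or muscarinic receptors and then broken down by acetylcholinesterase. Nicotinic receptors are ion channels assembled from subunits, and muscarinic receptors are G-protein-coupled receptors found on smooth muscle among other tissues. Colq is a collagen-like tail that anchors acetylcholinesterase in the extracellular matrix and is best known from the neuromuscular junction. The ureter at this stage holds an epithelial tube, a mesenchyme that is beginning to form smooth muscle, and incoming autonomic nerve fibres.

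Probes of Colq, Slc18a3 and Slc5a7 are shown first, as the opening 30 bases of each 60-base probe, 5′ to 3′, read from the array files. They are printed because the pair of Colq probes gave different ratios and because Slc18a3 and Slc5a7 each had ratios of opposite sign on the arrays. The name of each line gives the gene and the position in its transcript at which the probe starts, per the array files.
Colq at 2775: ttccggggcttctgggtgggcaaacaagga
Colq at 1275: gtcctgcagcctggggaagagtgtgatgat
Slc18a3 at 2350: aaacttggtctactacaccctggtgcctcc
Slc5a7 at 4766: gtgaaatgatatgtcaacaagctatcagat
Slc5a7 at 4327: gcaaagcaggttctttccatatacaatata
On mm9, the build named in the array files, the Colq probes lie at chr14:32336270-32336329 and chr14:32341463-32341522, the Slc18a3 probe at chr14:33275627-33275686, and the Slc5a7 probes at chr17:54413269-54413328 and chr17:54413708-54413767, all on the minus strand. No gene model of that build was used, so whether a probe falls in coding sequence or in a UTR is not given.

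Ratios are log2 of Rbpj-cKO over control. A level is the normalised log2 intensity of a channel, which can be set against the same probe in another channel but not against another probe. A probe passed the filter if on both arrays it had 2 or more of 4 spots well above background in 1 or both channels, which held for 26980 of 39429 probes. Across those probes, the ratios of replicate 1 and replicate 2 correlated at r = -0.365. The dyes are stated in the labels, so the direction was kept. Rbpj had ratios of -1.13 and -0.63 at its brighter probe, lower in Rbpj-cKO on both arrays, and Tbx18 had 0.17 and -0.24. All 6 ureteric mesenchyme, all 7 smooth muscle and all 8 urothelium genes of the lists passed the filter. So did 11 of 12 skeletal muscle and all 8 erythroid genes, so passing does not single out the labelled tissue. The female Rbpj-cKO channel held signal of Y-linked genes, 8.04% of the male Rbpj-cKO signal for Ddx3y and 8.94% for Eif2s3y, against 0.119% and 0.482% for the same comparison in control. The female Rbpj-cKO RNA thus did not fully match its sex label, and the part of this in the results below was not tested. Without replicate 2, which holds that RNA, the replicate 1 values given for each gene stand alone.

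Of the 12 member probes, 10 passed the filter, and these belong to 7 of the 9 genes. Chrna3 and Chrm2 did not pass. With limma over all 26980 probes, 0 probes (0%) had an adjusted p under 0.05, members included. The smallest adjusted p of any probe was 0.195, and 468 probes had an unadjusted p under 0.05. Limma with an intensity trend and robust moderation called 10 probes, 0 of them members. One member probe, Colq at 2775, was at least 1.5-fold lower in Rbpj-cKO on both arrays, as were 0.0556% of all probes. None of the members was at least 1.5-fold higher on both, against 0.104% of all probes. One, Slc18a3, was at least 1.5-fold different on both arrays in opposite directions, against 0.604% of all probes. By sign alone, 3 of the 10 probes were lower on both arrays, 0 were higher on both and 7 changed sign between the arrays (70%), beside 69.0% of all probes. Those 3 were the Colq probes, of a gene chosen by its low ratio, and Chrm3, which passed the filter through its control channels only. Of all 26980 probes, 4195 were lower and 4163 were higher on both arrays. The median of the mean ratios was -0.04 over the 10 probes and -0.01 over all probes.

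**Figure D1:**
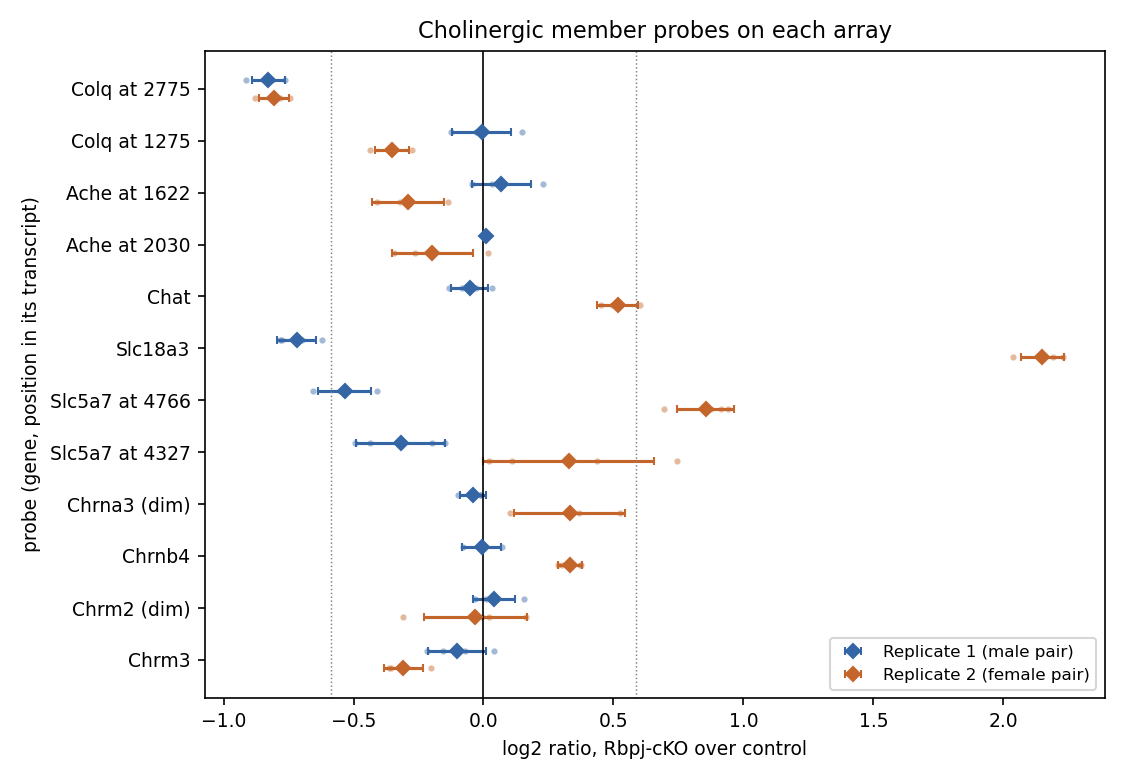
Log2 ratio of Rbpj-cKO over control (horizontal axis) of the 12 member probes (rows) on replicate 1, the male pair, and replicate 2, the female pair. Diamonds are the mean over the spots used, bars the SD of those spots, small points the single spots, and dotted lines mark 1.5-fold; probes marked dim did not pass the filter. Colq at 2775 sits at -0.83 and -0.81 on the arrays, while Slc18a3 lies at -0.72 on replicate 1 and 2.15 on replicate 2.

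Colq, the anchor of acetylcholinesterase, had the lowest mean ratio of the members at one of its probes. Colq at 2775 had levels of 10.40 and 10.33 in Rbpj-cKO, on replicates 1 and 2, against 11.22 and 11.13 in control. Both Rbpj-cKO levels lay below both control levels, and the share of all probes for which this holds was not counted. All 4 spots of every channel were well above background. The ratio was -0.83 on replicate 1, with single spots from -0.91 to -0.76, and -0.81 on replicate 2, with single spots from -0.88 to -0.74. Its mean was -0.82 ± 0.015 (SD, n = 2), which is 1.76-fold lower in Rbpj-cKO. With median centring in place of loess the ratios were -0.68 and -0.99, so how close the arrays lie depends on the normalization. No spot reached 0 on either array. In order of mean ratio it ranked 13 from the lowest of the 26980 probes. This value chose the gene and carries no test. In RNA of a whole tissue, fewer cells of a type and less RNA per cell cannot be told apart, here or for any gene below.

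The other Colq probe gave another value. Colq at 1275 had levels of 7.13 and 6.93 in Rbpj-cKO, against 7.13 and 7.28 in control, with all 4 spots of each channel well above background. Its ratio was -0.01 on replicate 1, with spots from -0.13 to 0.15, and -0.35 on replicate 2, with spots from -0.44 to -0.28. The mean was -0.18 ± 0.24 (SD, n = 2). On replicate 1 the spots lay on both sides of 0, and on replicate 2 all 4 lay below it. The lower Colq signal was therefore measured on both arrays at position 2775 and on 1 array at position 1275. Both probes name the same transcript, and which transcripts the ureter makes was not tested. With the scanner software's processed ratio, the probe at 1275 had -0.08 and -0.71, a mean of -0.39, so its size depends on the background correction.

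The genes on either side of Colq had mean ratios near 0, in part because the arrays differed in sign. Of its direct neighbours in the RefSeq gene table, Eaf1 had -0.21 and 0.19, a mean of -0.01. Hacl1 had -0.13 and 0.09, a mean of -0.02. One gene further out, Mettl6 had a mean of -0.07 at both of its probes, below 0 on both arrays. Btd had 0.09 and -0.21, a mean of -0.06.

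Genes were ranked by the Euclidean distance of their pair of ratios to that of Colq at 2775, with clone, predicted-gene and accession names left out. The nearest 5 were Shisa2, C1ql3, Nyap1, Cyp26a1 and Ctnna2. Shisa2 had ratios of -0.87 and -0.91, at a distance of 0.117. C1ql3 had -0.66 and -0.87, and Nyap1 had -0.88 and -0.63. Cyp26a1, an enzyme that breaks down retinoic acid, had -0.65 and -0.64 at a distance of 0.243. Ctnna2, an alpha-catenin, had -0.76 and -0.56 at a distance of 0.256, and its other probe had a mean of -0.44. The likeness rests on 2 values per gene.

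Ache encodes acetylcholinesterase, the enzyme that Colq anchors, and was close to background. Ache at 1622 (chr5:137733122-137733181, plus strand) had levels of 6.75 and 6.63 in Rbpj-cKO, against 6.68 and 6.92 in control. Ache at 2030 (chr5:137735513-137735572) had 6.72 and 6.58 in Rbpj-cKO, against 6.71 and 6.78 in control. The genotypes overlapped at both probes. In female Rbpj-cKO, 1 spot of the probe at 1622 and 0 spots of the probe at 2030 were well above background, against 3 spots of each in female control and in both channels of the male array. The ratios were 0.07 and -0.29 at 1622, and 0.01 and -0.20 at 2030. With median centring in place of loess both Ache probes were lower on both arrays, at -0.11 and -0.14 for 1622 and -0.17 and -0.03 for 2030. No difference in Ache could be given that held across these settings and both arrays.

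**Figure D2:**
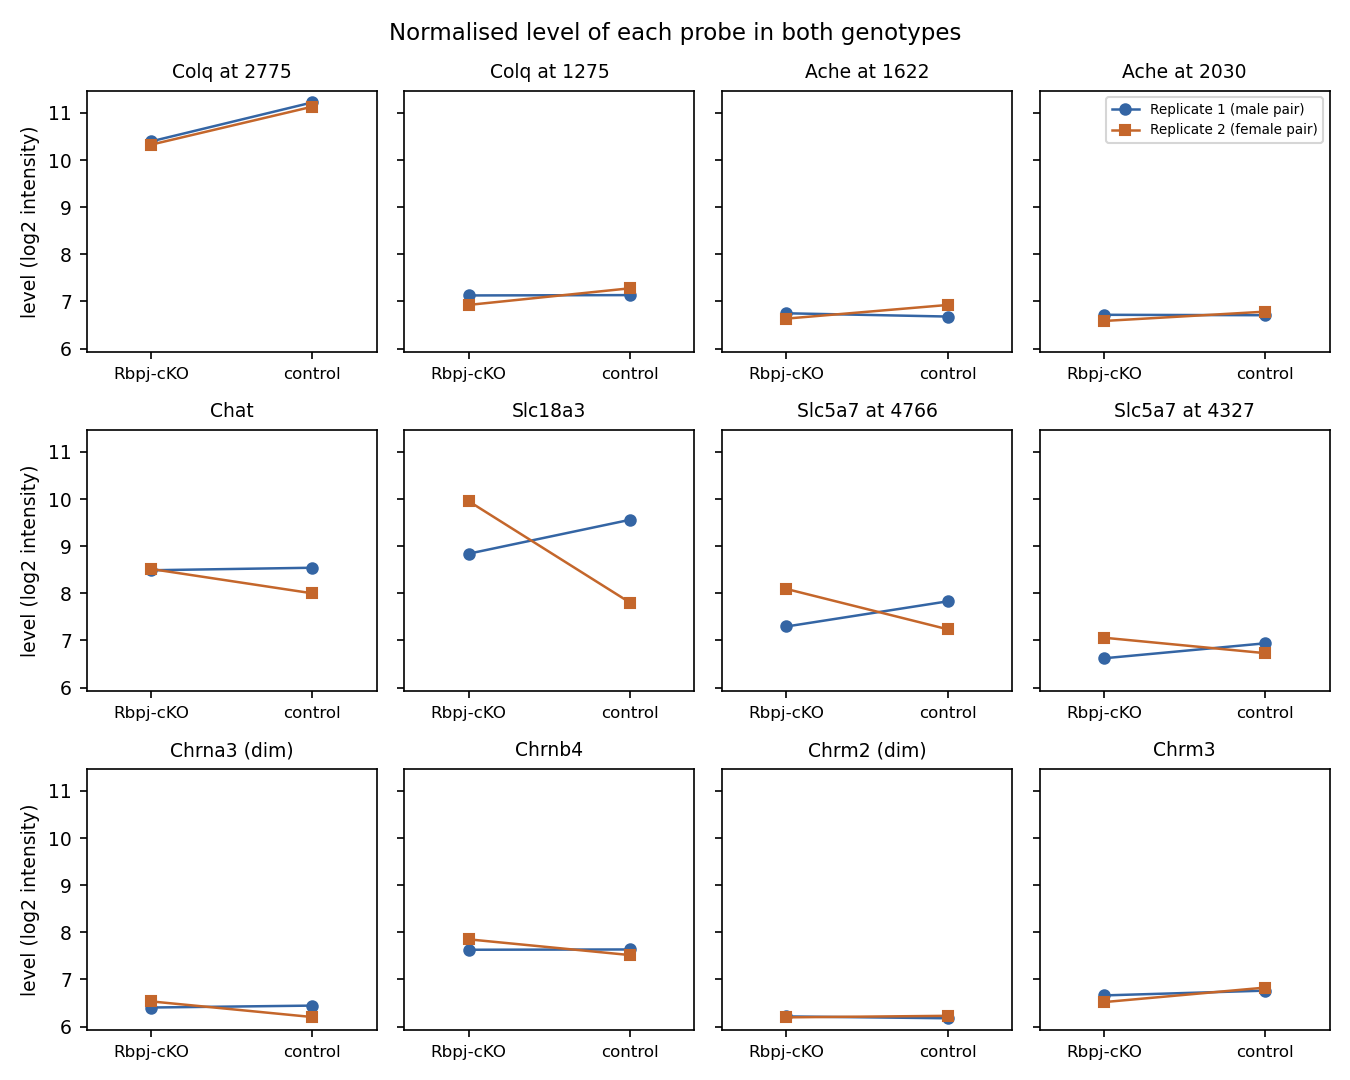
Normalised level (vertical axis, log2 intensity) of each member probe in Rbpj-cKO and control, with 1 line per array joining the channels of that array. The lines of Colq at 2775 run in parallel, with Rbpj-cKO at 10.40 and 10.33 and control at 11.22 and 11.13, and those of Slc18a3 cross. Levels of different probes cannot be compared.

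The genes that make, take up and pack acetylcholine had ratios of opposite sign on the arrays. Slc18a3 encodes the vesicular acetylcholine transporter, which loads the transmitter into synaptic vesicles. It had levels of 8.84 and 9.95 in Rbpj-cKO, against 9.56 and 7.80 in control, with all 4 spots of each channel well above background. Rbpj-cKO was the lower of the male pair and the higher of the female pair, so the genotypes overlapped. The ratio was -0.72 on replicate 1, which is 1.65-fold lower, and 2.15 on replicate 2, which is 4.44-fold higher. The spots on replicate 1 ran from -0.78 to -0.62, and those on replicate 2 from 2.04 to 2.23. The spots of an array thus lay close together while the arrays stood far apart, and the mean of 0.72 ± 2.03 (SD, n = 2) describes neither. Between the arrays, the level on replicate 1 minus replicate 2 was -1.11 in Rbpj-cKO and 1.76 in control. Each genotype also changed dye between the arrays, and the AlexaFluor555 channel was the higher on both. A difference between the arrays in a genotype's level therefore cannot be told apart from one between the dyes.

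Slc5a7, the high-affinity choline transporter of cholinergic nerve endings, followed the same signs. Slc5a7 at 4766 had levels of 7.30 and 8.09 in Rbpj-cKO, against 7.83 and 7.24 in control. Its ratio was -0.53 on replicate 1, with spots from -0.66 to -0.41, and 0.86 on replicate 2, with spots from 0.70 to 0.94. Slc5a7 at 4327 had 6.62 and 7.06 in Rbpj-cKO, against 6.94 and 6.73 in control, and ratios of -0.32 and 0.33. Both probes of the gene were thus below 0 in the male pair and above 0 in the female pair. At 4327, 1 spot of male Rbpj-cKO and 2 spots of female control were well above background, against all 4 spots of the other channels. With the processed ratio the probe at 4766 had -0.87 and 1.43 and the probe at 4327 had -0.87 and 1.04, so both were then beyond 1.5-fold on each array in opposite directions.

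Chat encodes choline acetyltransferase, which makes acetylcholine, and the Slc18a3 gene lies within an intron of Chat. The Chat probe (chr14:33221421-33221480, minus strand) had levels of 8.49 and 8.52 in Rbpj-cKO, against 8.54 and 8.0 in control. The Rbpj-cKO levels were alike on both arrays, and the female control level was the lowest of the 4. The ratio was -0.05 on replicate 1 and 0.52 on replicate 2, a mean of 0.23 ± 0.40 (SD, n = 2). On replicate 1 the Chat spots lay on both sides of 0, and the ratio there was 0.03 with median centring. On replicate 2 all 3 spots used lay between 0.45 and 0.60.

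Markers of neurons in general took the same course as these genes on replicate 2. Their median ratio over 8 genes was 0.01 on replicate 1 and 0.97 on replicate 2. The summed level of the list was 15.11 in Rbpj-cKO and 14.89 in control on replicate 1, and 14.96 in Rbpj-cKO and 14.69 in control on replicate 2. The list's brightest genes differed from that median. Snap25, of the vesicle fusion machinery, had 0.34 and -0.26, and Stmn2, a protein of growing axons, had 0.45 on both arrays. The noradrenergic and autonomic list had medians of 0.64 and 0.70 over 9 genes, and 8 of the 9 were higher on both arrays, beside 3294 of all 20495 genes. Of its brightest genes, Dbh, the enzyme that makes noradrenaline, had 1.83 and 0.70, and Phox2a, which directs the formation of autonomic neurons, had 0.64 and 1.26. The list of chromaffin granule genes, which also mark cells of the adrenal medulla and paraganglia, had medians of 1.80 and 0.86 over 4 genes. Of these 4, 3 were at least 1.5-fold higher on both arrays, beside 40 of 20495 genes that were so in either direction. Its summed level was 15.94 in Rbpj-cKO and 13.31 in control on replicate 1, and 13.46 in Rbpj-cKO and 12.66 in control on replicate 2. Of its brightest genes, which encode granins, Chga had ratios of 2.11 and 0.95, and Chgb had 2.83 and 0.77. Pnmt, the enzyme that makes adrenaline, had -0.15 and -0.11 and was named after its value was seen. The medians of the noradrenergic and chromaffin lists were thus higher in both Rbpj-cKO channels, while Chat, Slc18a3 and Slc5a7 had ratios above 0 in the female pair and below 0 in the male pair, apart from Chat in the male pair with median centring. No gene of these lists passed the limma test, and the part of nerve or chromaffin cell content in the member ratios was not tested.

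The genes nearest to Slc18a3 by the same distance, with the same kinds of names left out, were looked up after its values were seen. They were Ret at -0.51 and 1.99, Tlx2 at -0.37 and 2.10, Ccny at -0.99 and 2.41, Prph at -0.70 and 1.57, and Clec18a at -0.06 and 1.74. Ret is the receptor of GDNF-family ligands, Tlx2 a homeobox factor of neural-crest-derived neurons, and Prph an intermediate filament of peripheral neurons. Ret is also a gene of the autonomic list and the exception among its 9 genes, and Prph is a gene of the general neuron list. In Ret the levels were 8.96 and 9.76 in Rbpj-cKO, against 9.47 and 7.77 in control. As in Slc18a3, the female control was the lowest channel and the female Rbpj-cKO the highest.

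**Figure D3:**
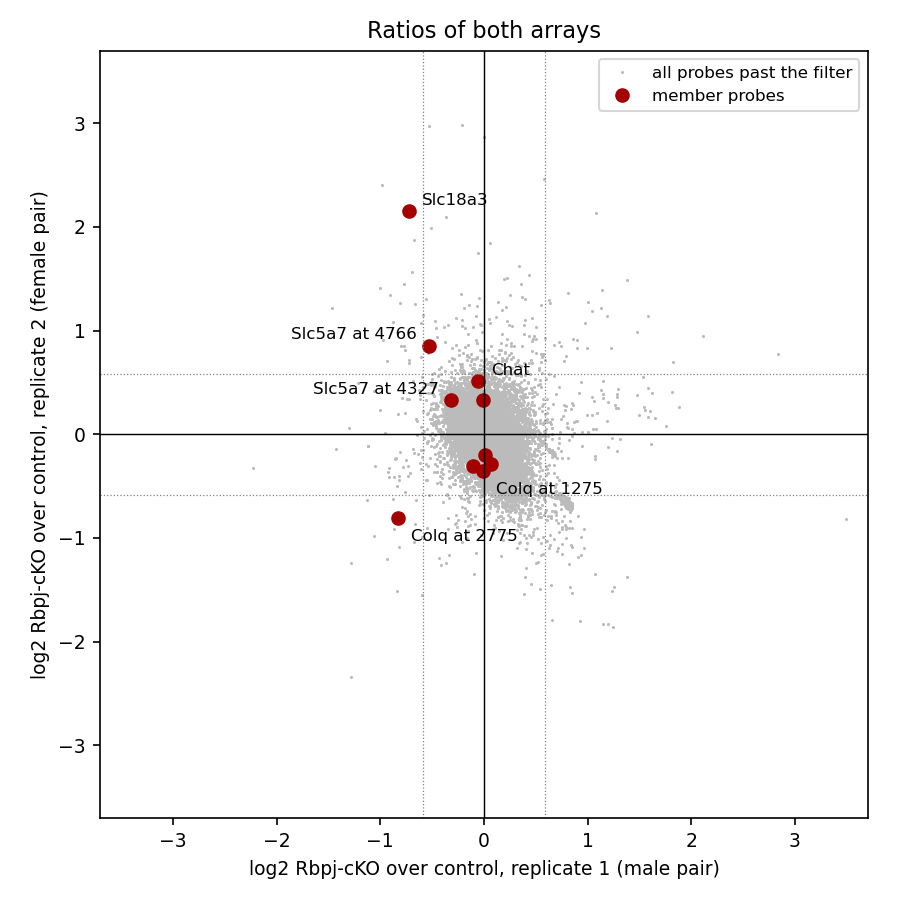
Log2 ratio of Rbpj-cKO over control on replicate 1 (horizontal axis) against replicate 2 (vertical axis) for 26980 probes in grey and the 10 member probes past the filter in red. Dotted lines mark 1.5-fold. Colq at 2775 lies in the lower left corner field with 0.0556% of the probes, and Slc18a3 in the upper left one, while the remaining member probes lie inside the 1.5-fold lines on at least 1 array.

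The nicotinic subunits of autonomic neurons showed small ratios. Chrnb4, the beta subunit that pairs with Chrna3 in ganglionic receptors, had levels of 7.63 and 7.85 in Rbpj-cKO, against 7.64 and 7.52 in control (chr9:54875985-54876044, minus strand). All 4 spots of every channel were well above background, and the genotypes overlapped. The ratio was -0.01 and 0.33, a mean of 0.16 ± 0.24 (SD, n = 2). Chrna3 (chr9:54859230-54859289, minus strand) had at most 1 of 4 spots well above background in any channel. Its levels were 6.40 and 6.53 in Rbpj-cKO, against 6.44 and 6.2 in control, and no fold is given for it. Of the ganglionic pair, only the beta subunit could be read on these arrays.

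The muscarinic receptors of smooth muscle were at or near background. Chrm2 (chr6:36474550-36474609, plus strand) had 0 of 4 spots well above background in every channel, with levels of 6.21 and 6.19 in Rbpj-cKO, against 6.17 and 6.23 in control. Chrm3, the receptor through which acetylcholine contracts most smooth muscle (chr13:9875880-9875939, minus strand), had 6.66 and 6.52 in Rbpj-cKO, against 6.76 and 6.83 in control. Both Rbpj-cKO levels of Chrm3 lay below both control levels. Chrm3 passed the filter on each array through its control channel only, so the filter itself favoured a lower Rbpj-cKO level. The share over all probes was not counted, so the lack of overlap is a description only. The spots well above background numbered 1 and 0 in Rbpj-cKO, against 4 and 2 in control. The ratio was -0.10 on replicate 1 and -0.31 on replicate 2, a mean of -0.20 ± 0.15 (SD, n = 2). The mean is 1.15-fold lower in Rbpj-cKO. A lower limit, with Rbpj-cKO levels raised to at least the lowest level of any probe well above background, was the same 1.15-fold. That limit therefore adds no information. Chrm3 was not well above background in Rbpj-cKO, and its spots on replicate 1 ran from -0.22 to 0.04. The size depends on the background correction, with a mean of -0.44 under normexp without an offset and -0.79 for the processed ratio. Smooth muscle markers beside it had medians of 0.04 and -0.34 over 7 genes, with 1 gene higher and 3 lower on both arrays, and their part in the Chrm3 ratio was not tested.

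The rest of the cholinergic pathway was read from a list of 38 further genes, chosen with earlier results of these data known. The brightest probe stood for each gene, and 33 of the 38 were measured. None passed the limma test over all probes, and 2 had an unadjusted p under 0.05, beside 392 of all 20495 genes. Of the 33 genes, 7 were higher in Rbpj-cKO on both arrays, 3 were lower on both and 23 changed sign (69.7%), beside 69.2% of all 20495 genes. Among all genes, 3294 had ratios above 0 and 3022 ratios below 0 on both arrays. None was at least 1.5-fold different the same way on both arrays, against 0.195% of all genes, and 2 were so in opposite directions, against 0.717% of all genes. The median ratio was 0.12 on replicate 1 and -0.10 on replicate 2, and the median of the mean ratios was -0.03, beside -0.003 over all genes.

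The largest mean ratios in the list belonged to Slc10a4, Chrna1, Prima1 and Chrnb2. Slc10a4, a transporter-like protein of cholinergic and aminergic vesicles, had 0.26 and 0.86, a mean of 0.56 ± 0.42 (SD, n = 2). Its levels were 7.64 and 7.58 in Rbpj-cKO, against 7.38 and 6.73 in control. Both Rbpj-cKO levels lay above both control levels, which also held for Prima1, Chrnb2 and other genes of the list. The share of all genes for which this holds was not counted, so it is a description only. Prima1, the membrane anchor of acetylcholinesterase in nerve tissue and in that sense the counterpart of Colq, had 0.06 and 0.67, a mean of 0.37 ± 0.43. Its levels were 8.80 and 9.15 in Rbpj-cKO, against 8.73 and 8.48 in control. The anchor genes thus had opposite signs of the mean, Colq at 2775 below 0 and Prima1 above it, with the Prima1 ratio near 0 on replicate 1. Chrnb2, a neuronal nicotinic subunit, had 0.29 and 0.42, a mean of 0.35 ± 0.089, with levels of 7.24 and 7.10 in Rbpj-cKO against 6.95 and 6.68 in control. Bche, which encodes the related enzyme butyrylcholinesterase and is the other gene of the hydrolysis group, had 0.03 and 0.38. Bche was named after its value was seen, to complete that group.

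The nicotinic subunits of skeletal muscle had signs opposite to those of the nerve-ending genes. Chrna1 had levels of 8.83 and 8.33 in Rbpj-cKO, against 8.18 and 9.79 in control, and ratios of 0.65 and -1.45. Its other probe had 0.11 and -0.59. Chrnd had levels of 8.21 and 7.67 in Rbpj-cKO, against 7.56 and 8.47 in control, and ratios of 0.65 and -0.81. All 4 measured subunits of this group were higher in the male and lower in the female Rbpj-cKO channel, with medians of 0.40 and -0.70. The skeletal muscle markers moved with them, at medians of 0.63 and -0.97 over 11 of 12 genes. All 11 were above 0 in the male pair and below 0 in the female pair, and Myf5 did not pass the filter. The summed level of those markers was 14.65 in Rbpj-cKO and 13.66 in control on replicate 1, and 13.62 in Rbpj-cKO and 15.08 in control on replicate 2. Myh3, the embryonic myosin heavy chain and the brightest of them, had 1.25 and -1.85, and Tnni2, fast skeletal troponin I, had 0.83 and -0.83. Erythroid markers had medians of 0.40 and -0.69 over 8 genes. The part of skeletal muscle or blood in the dissected tissue in these ratios was not tested.

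**Figure D4:**
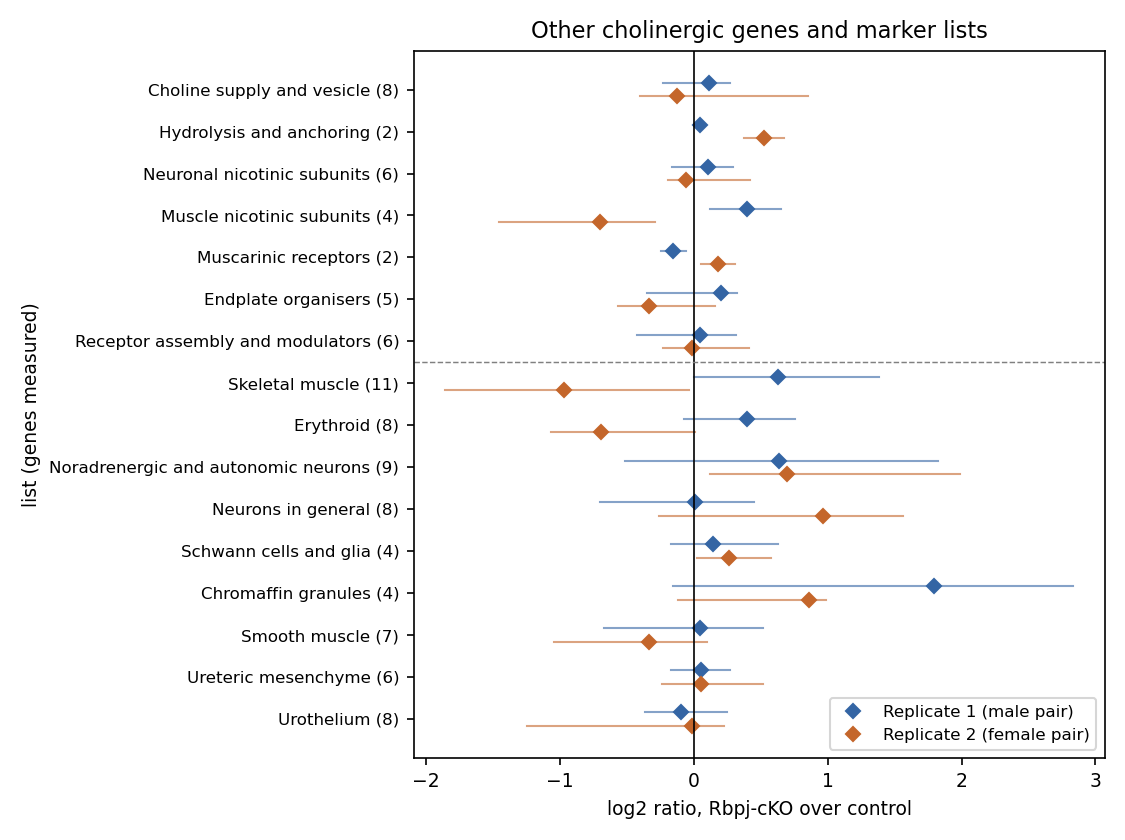
Log2 ratio of Rbpj-cKO over control (horizontal axis) of the 7 groups of other cholinergic genes, above the dashed line, and of 9 marker lists below it, with the number of genes measured in brackets. Diamonds are medians over the genes of a list on each array and lines run from the lowest to the highest gene. Muscle nicotinic subunits lie at 0.40 and -0.70 and skeletal muscle markers at 0.63 and -0.97, while the noradrenergic list lies at 0.64 and 0.70.

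The promoter windows of the members around the annotated start in the RefSeq table on GRCm38.p6 were searched on both strands for letters of known factors. The table held 8 of the 9 members, without Colq. The letters GTGGGAA, a core that the Rbpj protein is known to bind, were in 0 of the 8, beside 6.38% of the 32851 promoters of the table. The shorter TGGGAA, which is part of GTGGGAA, was in 1 of the 8, Chrnb4, beside 25.6% of all. The E-box letters CANNTG were in 7 of the 8, beside 72.3% of all. A match or its absence says only which letters stand in that window.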

How the data were processed

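Two-colour Agilent arrays of E14.5 ureters were analysed, with the intensity of each spot and its local background deposited raw on a linear scale, per the file headers. Processed intensities were also deposited, background-subtracted, detrended and dye-normalized by the scanner software, and the deposited log10 ratio is red over green of them, per the file headers. Flags per spot were deposited as other values. Per the submitters' processing notes, images were read with Agilent Feature Extraction (version 10.7.3.1). A deposited score per probe and array was read from its values as a signed linear fold of Rbpj-cKO over control; after log2 with its sign it correlated with the processed ratios at 0.782 and 0.849. Its median is 1 on both arrays. The sources used here do not say how the authors scaled and centred it.

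Background was corrected with normexp (offset 50) and ratios normalized by loess within arrays, leaving 17263 control spots without weight (limma 3.58.1, R 4.3.3). Levels were further scaled between arrays by the Aquantile method. Outlier spots (3.57% and 3.90%) were removed, none was saturated, and the rest were averaged. On replicate 2 the sign was turned. A probe's accession gave its gene name through RefSeq for 28328 probes. All probes past the filter were tested with lmFit and eBayes (two-sided, Benjamini-Hochberg adjustment), with 1 residual degree of freedom. The procedure was run on simulated data, with known changes in bright probes only and noise drawn separately for each array. That setting differs from these arrays, whose ratios correlated at r = -0.365, so it does not show how the procedure performs on them. Spots well above background made up 67.7% to 70.1% of a channel, and 2 arrays limit the precision. The members and all lists were chosen with earlier results of these data known. Named were all member probes, the other cholinergic genes beyond 1.5-fold on both arrays or among the 4 largest mean ratios, the 5 genes nearest to Colq, Rbpj, Tbx18 and up to 2 of the brightest genes per marker list. Other genes were chosen after their values were seen, except the neighbours of Colq and the Y-linked genes. Matching the probes to proteins was not done. Alternatives were the processed ratio, normexp without an offset, median centring, outlier spots kept, the median of spots, no filter or a strict filter, trend and robust moderation, the deposited score, a 2-fold threshold, the mean of all probes and leaving out each array.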

Additional observations from a re-analysis of the deposited data

Results flagged for a closer look

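In 3 genes the male and the female pair differed by at least 1.5-fold in opposite directions. The difference between the pairs was not tested, and sex, dye orientation and array cannot be told apart in it. Slc18a3, the vesicular acetylcholine transporter, had a log2 ratio of -0.72 in the male pair and 2.15 in the female pair, a difference of -2.87. Chrna1, the alpha subunit of the muscle nicotinic receptor, had 0.65 in the male pair and -1.45 in the female pair, a difference of 2.10. Chrnd, the delta subunit of the same receptor, had 0.65 in the male pair and -0.81 in the female pair, a difference of 1.45. Such opposed differences were found in 147 of 20495 genes. They were also found in 6 of 11 skeletal muscle markers, 3 of 8 erythroid markers and 1 of 8 general neuron markers, and in no gene of the other marker lists.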

How the results depend on the processing

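The ratio within each array pairs the genotypes, so the fit is paired as it stands and a replicate block could not be added. Colq at 2775 was at least 1.5-fold lower on both arrays under all 6 alternatives that keep both, with mean ratios from -0.85 (processed ratio) and -0.84 (normexp without an offset) to -0.81, and between -0.83 and -0.81 when either array was left out. Slc18a3 kept its sign on each array under the same 6, at -0.84 to -0.60 on replicate 1 and 2.01 to 2.60 on replicate 2. Of the 10 member probes past the filter, 3 were lower on both arrays, 4 with the processed ratio and 5 with median centring. Limma called 0 probes, but 3 with the processed ratio, 12 without an offset and 10 with an intensity trend and robust moderation. The cause of these differences was not tested. The other cholinergic genes had 0 calls under every setting tried, and their median lay between -0.05 and -0.02, or at -0.10 and 0.12 when replicate 1 or replicate 2 was left out. Probes at least 1.5-fold lower on both arrays numbered 15, with 34 for the processed ratio and 2 at a 2-fold threshold; those higher numbered 28, with 74 for the processed ratio, 49 without an offset and 7 at 2-fold. With a single array the threshold applies once, which gave 87 to 509 lower and 266 to 316 higher probes. Signal near background limits Ache, Chrna3, Chrm2, Chrm3 and Slc5a7 at 4327.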
